A study of Mus musculus with 16 samples.

Results

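The angiopoietins, their Tie receptors and the angiopoietin-like genes were followed across 4 cell types of the mouse liver. The group was set by symbol as the ligands Angpt1 and Angpt2, the receptors Tek (the gene of Tie2) and Tie1, and Angptl2, Angptl4 and Angptl6, and all 7 were found among the 47729 genes counted. RNA of endothelial cells (ECs), hepatic stellate cells (HSCs), Kupffer cells and hepatocytes had been sequenced in 16 libraries, with 2 libraries for each cell type and each genotype label. The questions addressed were which cell type holds each ligand and receptor, and how the libraries labelled KO compare with those labelled WT in each cell type.

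Tie2 is a receptor tyrosine kinase of the endothelium. Angpt1, which is typically made by cells around the vessel, activates Tie2 and keeps the endothelium quiet, whereas Angpt2 is made and stored by ECs and can block or activate Tie2 depending on context. Tie1 binds neither ligand by itself and modulates Tie2 as a partner. The angiopoietin-like proteins resemble angiopoietins in their domains but do not act through Tie2. Angptl4 inhibits lipoprotein lipase and its gene is a target of the PPAR factors, Angptl2 is linked to inflammation and integrin binding, and Angptl6 to systemic energy metabolism.

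Mice labelled KO carried Cdh5-CreERT2, a tamoxifen-inducible Cre under the VE-cadherin promoter that is active in ECs, together with a Zeb2 gene whose exon 7 is flanked by loxP sites. Mice labelled WT were littermates without Cre. Both had a Cre reporter for eGFP at the R26R locus, and both received tamoxifen at 2 mg per day for 5 days. The males were 8 weeks old, and RNA was taken 2 weeks after tamoxifen from livers with no further challenge. After enzymatic digestion, hepatocytes were separated by centrifugation, and the other cells were sorted by flow cytometry as UV-positive HSCs, F4/80-positive Kupffer cells and ECs that stained with the Meca32 antibody. Each library held between 12872706 and 15690506 reads that fell on genes, so that 3 counts corresponded to 0.191 to 0.233 CPM (counts of a gene scaled to the library's total on genes).

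The targeted gene was examined first. Zeb2 was counted at 106 and 106 CPM in the EC libraries labelled WT and at 130.1 and 199 CPM in those labelled KO, with a log2 fold change of 0.62 ± 0.240 (SE) and an edgeR adjusted p of 0.303. The count covers the whole gene, while only exon 7 was floxed, so that it does not settle whether that exon was lost. Groups are therefore called by their labels throughout. Markers of the sorted cell type were high in each library, while RNA of other cell types was also counted. The summed level of 10 hepatocyte markers (Alb, Apoa1 and others) was 11731 to 24188 CPM in ECs labelled WT and 1960 to 2798 CPM in ECs labelled KO, with none of the 10 at 0, against 95966 to 112851 CPM in hepatocytes. Cdh5, whose promoter drives the Cre, reached 78.8% to 92.2% of its mean EC level in the Kupffer cell libraries and at most 6.62% in HSCs. In bulk libraries, fewer cells of a type and less RNA per cell cannot be told apart.

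The regulatory sequence around the start of each gene was taken from RefSeq for GRCm38.p6, which gave 4 of the 7 genes: both receptors, which were highest in ECs, and Angptl2 and Angptl6, which were highest in HSCs. They are shown because these pairs had opposite cell type patterns. Each runs from 250 bases before to 50 bases after the start that RefSeq gives, 5′ to 3′ on the strand of the gene. That start is the same as in the GENCODE gene bounds given with the values for Tek, and another for Tie1, Angptl2 and Angptl6. Capitals mark the ETS core AGGAAG or the site of GATA factors with the letters AGATAA, on either strand. Tek (chr4:94739039-94739338, plus strand), Tie1 (chr4:118489800-118490099, minus strand), Angptl2 (chr2:33215711-33216010, plus strand) and Angptl6 (chr9:20879661-20879960, minus strand) read as follows.
Tek: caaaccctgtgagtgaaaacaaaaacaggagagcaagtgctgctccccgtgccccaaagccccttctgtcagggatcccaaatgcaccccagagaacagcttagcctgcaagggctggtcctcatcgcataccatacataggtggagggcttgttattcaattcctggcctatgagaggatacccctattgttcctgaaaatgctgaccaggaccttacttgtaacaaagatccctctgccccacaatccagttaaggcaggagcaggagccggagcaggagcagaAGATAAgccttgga
Tie1: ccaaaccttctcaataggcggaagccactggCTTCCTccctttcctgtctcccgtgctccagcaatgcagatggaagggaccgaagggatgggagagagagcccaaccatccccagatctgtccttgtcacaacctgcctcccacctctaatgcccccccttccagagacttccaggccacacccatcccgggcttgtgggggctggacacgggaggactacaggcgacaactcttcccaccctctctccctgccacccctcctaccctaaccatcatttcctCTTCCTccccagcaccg
Angptl2: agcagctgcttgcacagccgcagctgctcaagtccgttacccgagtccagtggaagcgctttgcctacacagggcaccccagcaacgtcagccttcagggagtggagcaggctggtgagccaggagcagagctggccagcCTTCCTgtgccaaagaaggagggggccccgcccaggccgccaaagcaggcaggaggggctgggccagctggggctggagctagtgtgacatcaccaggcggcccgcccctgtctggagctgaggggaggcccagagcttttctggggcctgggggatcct
Angptl6: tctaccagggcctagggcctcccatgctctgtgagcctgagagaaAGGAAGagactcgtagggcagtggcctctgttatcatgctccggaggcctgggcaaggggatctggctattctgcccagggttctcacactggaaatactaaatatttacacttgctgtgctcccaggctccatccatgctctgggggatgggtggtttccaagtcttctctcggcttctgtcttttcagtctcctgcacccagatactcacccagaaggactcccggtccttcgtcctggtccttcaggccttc

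The Tek window held AGATAA 36 bases after the RefSeq start and no AGGAAG. The Tie1 window held the ETS core on its opposite strand, as CTTCCT, at -219 and at 33. Angptl2 held it on the opposite strand at -110, and Angptl6 held it on the gene's strand at -205. Of 32851 mouse promoters of this length, 35.4% had AGGAAG or its complement and 11.2% had AGATAA or its complement, so that such matches are common. The letters CACCTG, part of the site that Zeb factors bind, were in none of the 4 windows and in 20.2% of all promoters on either strand. GC content was 52% for Tek, 60.3% for Tie1, 66.7% for Angptl2 and 55.7% for Angptl6.

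Both receptors were endothelial. Tie1 (ENSMUSG00000033191, GRCm38 chr4:118471191-118490061, minus strand) was counted at 1344 and 904 CPM in the ECs labelled WT and at 1101 and 1075 CPM in those labelled KO. In HSCs it was at 90.7 and 58.0 CPM under WT and 54.4 and 48.1 CPM under KO. In Kupffer cells it was at 15.3 and 35.8 CPM under WT and 47.6 and 8.19 CPM under KO, and no hepatocyte library exceeded 10.5 CPM. Every EC library thus lay far above every library of the other cells. The EC mean of 1106 ± 181 CPM (SD, n = 4) was 17.6-fold that of HSCs, 41.4-fold that of Kupffer cells and 146-fold that of hepatocytes.

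Tek (ENSMUSG00000006386, GRCm38 chr4:94739289-94874976, plus strand) followed the same order among ECs and the rest at a lower level. It was counted at 556 and 306 CPM in ECs labelled WT and at 365 and 219.5 CPM in ECs labelled KO. HSCs had 40.2 and 19.5 CPM under WT and 11.1 and 15.5 CPM under KO, and Kupffer cells had 3.49 and 23.2 CPM under WT and 24.8 and 26.1 CPM under KO. Hepatocytes had 0.129 to 3.89 CPM, of which the lowest value, 2 reads in KO library 25, was under the floor of 3 counts. HSCs and Kupffer cells overlapped for Tek, and their difference of 0.09 on the log2 scale had an edgeR adjusted p of 0.918. Per length, the mean of Tie1 was above that of Tek in each cell type, with an EC mean of 225 RPKM (CPM divided by the exon length in kilobases) against 76.8 RPKM. In Kupffer cells the means were 5.43 and 4.11 RPKM, and in KO library 43 Tek was the higher, at 5.53 RPKM against 1.67 RPKM.

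Angpt2, the EC-stored ligand, was also highest in ECs. Angpt2 (ENSMUSG00000031465, GRCm38 chr8:18690263-18741562, minus strand) had 107 and 55.3 CPM in ECs labelled WT and 111 and 86.3 CPM in those labelled KO. In Kupffer cells it was at 2.95 and 5.15 CPM under WT and at 17.5 and 17.5 CPM under KO. In HSCs 3 libraries had 2.18 to 3.65 CPM and the KO library 20 had 25.8 CPM. Hepatocytes had 0.382 to 2.39 CPM. The EC mean of 90.0 ± 25.5 CPM (SD, n = 4) was 8.35-fold that of Kupffer cells, 10.6-fold that of HSCs and 77.0-fold that of hepatocytes, and the difference between Kupffer cells and HSCs did not pass (edgeR adjusted p = 0.618). Without HSC KO library 20 it passed, with HSCs at -1.82 relative to Kupffer cells on the log2 scale (edgeR adjusted p = 0.0212).

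Angpt1, the activating ligand, was a low-level HSC transcript. Angpt1 (ENSMUSG00000022309, GRCm38 chr15:42424723-42676977, minus strand) had 28.4 and 14.3 CPM in HSCs labelled WT and 10.2 and 10.4 CPM in HSCs labelled KO. Among ECs it had 16 and 0 reads under WT and 4 and 0 reads under KO. Kupffer cells had 2 to 19 reads, and hepatocytes had 0 reads in both WT libraries and 5 and 1 reads in the KO libraries. A library with 0 reads allows a level of up to 0.233 CPM at most at this depth. All 4 HSC libraries were thus above every other library, with a mean of 15.8 ± 8.61 CPM (SD, n = 4) that was 24.4-fold the Kupffer cell mean and 45.4-fold the EC mean. Per length, Angpt2 in ECs at 24.4 RPKM was above Angpt1 in HSCs at 3.04 RPKM.

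**Figure D1:**
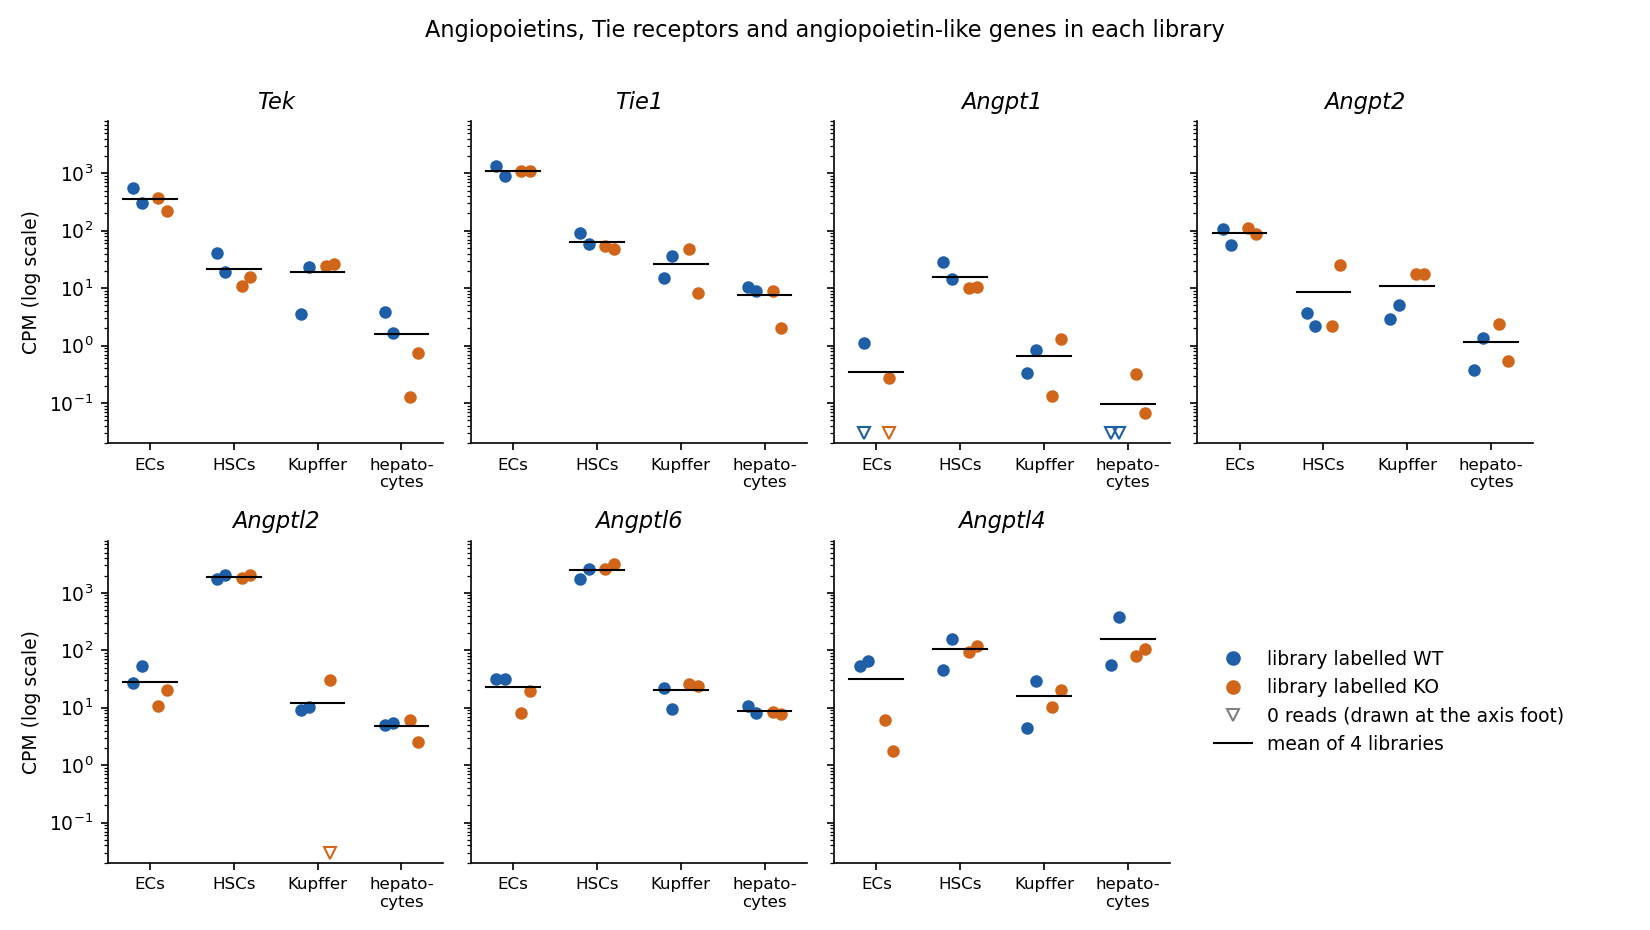
CPM (log axis) of each of the 7 genes in each of the 16 libraries, by cell type, with WT-labelled libraries in blue, KO-labelled libraries in orange, the mean of 4 libraries as a black line, and libraries with 0 reads as open triangles at the foot. Tek, Tie1 and Angpt2 are highest in ECs and Angpt1, Angptl2 and Angptl6 in HSCs, while the Angptl4 libraries of hepatocytes and HSCs overlap.

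Angptl2 and Angptl6 were HSC transcripts. Angptl2 (ENSMUSG00000004105, GRCm38 chr2:33216069-33247717, plus strand) had 1706 and 2075 CPM in HSCs labelled WT and 1821 and 2067 CPM in HSCs labelled KO. It had 10.5 to 53.4 CPM in ECs, 2.49 to 6.19 CPM in hepatocytes and 0 to 29.8 CPM in Kupffer cells. The Kupffer cell range came from the libraries labelled KO, with 452 reads in number 27 and 0 reads in number 43. The HSC mean of 1917 ± 183 CPM (SD, n = 4) was 69.1-fold the EC mean and 404-fold the hepatocyte mean.

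Angptl6 (ENSMUSG00000038742, GRCm38 chr9:20873808-20879727, minus strand) had 1747 and 2616 CPM in HSCs labelled WT and 2593 and 3115 CPM in HSCs labelled KO. Other cell types had 7.82 to 32.2 CPM. The HSC mean of 2518 ± 567 CPM (SD, n = 4) was 110-fold the EC mean, 122-fold the Kupffer cell mean and 288-fold the hepatocyte mean. Per length, Angptl6 in HSCs at 1592 RPKM was the highest value of the family in any cell type, ahead of Angptl2 in HSCs at 305 RPKM and Tie1 in ECs. Neither ECs against Kupffer cells nor ECs against hepatocytes passed for Angptl6, with edgeR adjusted p-values of 0.590 and 0.863.

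Angptl4, the lipase inhibitor, was shared between hepatocytes and HSCs. Angptl4 (ENSMUSG00000002289, GRCm38 chr17:33773750-33781830, minus strand) had 56.3 and 378 CPM in hepatocytes labelled WT and 81.0 and 107 CPM in those labelled KO. In HSCs it had 44.9 and 159.8 CPM under WT and 94.1 and 120.1 CPM under KO. Kupffer cells had 4.43 to 29.3 CPM. ECs had 53.9 and 65.1 CPM under WT and 6.06 and 1.74 CPM under KO. The hepatocyte mean of 156 ± 150 CPM (SD, n = 4) was 1.49-fold the HSC mean, the ranges overlapped, and the edgeR adjusted p was 0.0541. In CPM, which is scaled to library totals, that order rested on WT library 33, without which the hepatocyte mean was 81.4 ± 25.3 CPM (SD, n = 3), below the HSC mean of 105 CPM. In the fit with TMM scaling that was used to compare cell types, HSCs were at -1.61 relative to hepatocytes on the log2 scale, and this value kept its sign when any 1 library was left out (-1.92 to -0.33, the latter without WT library 33). With DESeq2 it passed (-1.57, adjusted p = 0.0284).

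Cell types were compared in a fit of all 16 libraries that averaged both labels on the log scale after TMM scaling, so that its fold changes differ from ratios of mean CPM. TMM factors were 0.497 to 0.588 in hepatocytes against 1.01 to 1.47 in other cells, and the median log2 difference of all genes between ECs and hepatocytes was 0.54 with TMM and 1.85 with library totals. With TMM that median was 0.60 for HSCs and 0.24 for Kupffer cells against hepatocytes, 0.13 for ECs and 0.09 for HSCs against Kupffer cells, and 0.02 for ECs against HSCs. The tests treated the 16 libraries as independent, although cells of more than 1 type may have come from the same liver. Between ECs and HSCs all 7 genes passed an adjusted p of 0.05, as did 26% of all genes tested. Tie1 was 3.92 ± 0.549 higher in ECs on the log2 scale (SE, edgeR adjusted p = 0.000242), Tek 3.90 ± 0.553 (0.000264) and Angpt2 3.54 ± 0.684 (0.00240). In ECs relative to HSCs, Angptl6 was at -7.13 ± 0.433 (SE, edgeR adjusted p = 3.47e-07), Angptl2 at -6.52 ± 1.07 (0.000790), Angpt1 at -5.90 ± 1.16 (0.00330) and Angptl4 at -3.04 ± 0.707 (0.00753). The libraries of the cell types overlapped for Angptl4 alone. With the 8 WT-labelled libraries alone neither Angptl4 (-1.05, adjusted p = 0.562) nor Angpt1 (-5.46, adjusted p = 0.0558) passed.

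Against Kupffer cells, 3 of the 7 passed in ECs (32% of all genes), namely Tie1 at 5.09 ± 0.581, Tek at 3.99 ± 0.555 and Angpt2 at 3.11 ± 0.669 on the log2 scale (SE), with edgeR adjusted p-values of 3.85e-05, 0.000166 and 0.00375. Between ECs and hepatocytes 4 passed (58.7% of all genes). Tek was 6.97 ± 0.667 higher in ECs, Tie1 5.90 ± 0.607 and Angpt2 4.94 ± 0.753, whereas Angptl4 was lower at -4.65 ± 0.758 (SE, edgeR adjusted p-values 2.62e-06, 4.67e-06, 0.000128 and 0.000219). Neither Angptl2 (1.03, adjusted p = 0.330) nor Angptl6 (-0.09, adjusted p = 0.863) passed there, and with library totals in place of TMM Angptl6 was 1.26 higher in ECs and passed.

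Between HSCs and Kupffer cells 4 of the 7 passed (42.9% of all genes), all higher in HSCs. Angptl2 was higher by 7.25 ± 1.11, Angptl6 by 6.86 ± 0.428, Angpt1 by 4.45 ± 1.06 and Angptl4 by 2.69 ± 0.691 on the log2 scale (SE), with edgeR adjusted p-values of 0.000267, 4.37e-07, 0.00614 and 0.00815. The Angptl4 call was lost with the 8 WT-labelled libraries alone (2.58, adjusted p = 0.133). Tie1 was higher in each HSC library than in any Kupffer cell library, but the difference of 1.16 did not pass (adjusted p = 0.0778). Between HSCs and hepatocytes 5 passed (58.4% of all genes). They were Angptl2 at 7.55 ± 1.13, Angptl6 at 7.04 ± 0.432, Tek at 3.06 ± 0.596 and Tie1 at 1.98 ± 0.515 (SE, edgeR adjusted p-values 0.000113, 8.69e-08, 0.000869 and 0.00588), and Angpt1, for which no fold is given because both WT-labelled hepatocyte libraries had 0 reads. Between Kupffer cells and hepatocytes 3 passed (55.6% of all genes), with Tek 2.97 ± 0.595 and Angpt2 1.83 ± 0.697 higher in Kupffer cells, and Angptl4 lower there at -4.30 ± 0.742 (SE, edgeR adjusted p-values 0.00107, 0.0409 and 0.000360). The Angpt2 call was lost without any 1 of Kupffer cell libraries WT 39 and KO 43 and hepatocyte libraries WT 29 and KO 41 (adjusted p = 0.0667 to 0.0932). With the 8 WT-labelled libraries alone neither Angpt2 (1.19, adjusted p = 0.192) nor Tek (1.23, adjusted p = 0.259) passed.

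The level of each gene outside its main cell type was set beside the markers of that main cell type in the same library, both as a percent of the level in the main cell type. Tie1 in HSCs stood at 4.35% to 8.20% of its EC level and Tek at 3.06% to 11.1%, while the median of the 10 EC markers was 1.15% to 3.53%. Both genes were above that median in 4 of 4 HSC libraries, but below the EC marker Eng, which reached 32.9% to 41.9% there. In Kupffer cells Tie1 was at 0.740% to 4.30%, under the marker median of 2.18% to 5.60% in 4 of 4 libraries. Tek was at 0.964% to 7.20% there, above the median in 3 of 4 libraries. Angpt2 in Kupffer cells was above the median in 4 of 4 libraries, with 19.4% and 19.5% in the libraries labelled KO against medians of 5.60% and 3.85%. All 3 genes were below the EC marker Cdh5, which reached 78.8% to 92.2% there.

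For the HSC genes in ECs, Angptl2 was at 0.548% to 2.79% of its HSC level and Angptl6 at 0.324% to 1.28%, where the 10 HSC markers had medians of 0.414% to 1.83%. Angptl4 in HSCs stood apart from the hepatocyte markers. It was at 28.9% to 103% of its hepatocyte level and above each of the 10 hepatocyte markers in 4 of 4 HSC libraries, whose medians were 0.457% to 6.80%. In ECs labelled WT it was also above each marker, at 34.6% and 41.9% against highest markers of 16.2% and 34.1%. In ECs labelled KO it was at 3.90% and 1.12%, within the marker ranges of 1.68% to 4.70% and 1.09% to 2.38%. Among Kupffer cells it was above each marker in WT library 39 alone, at 18.8% against 14.0%.

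**Figure D2:**
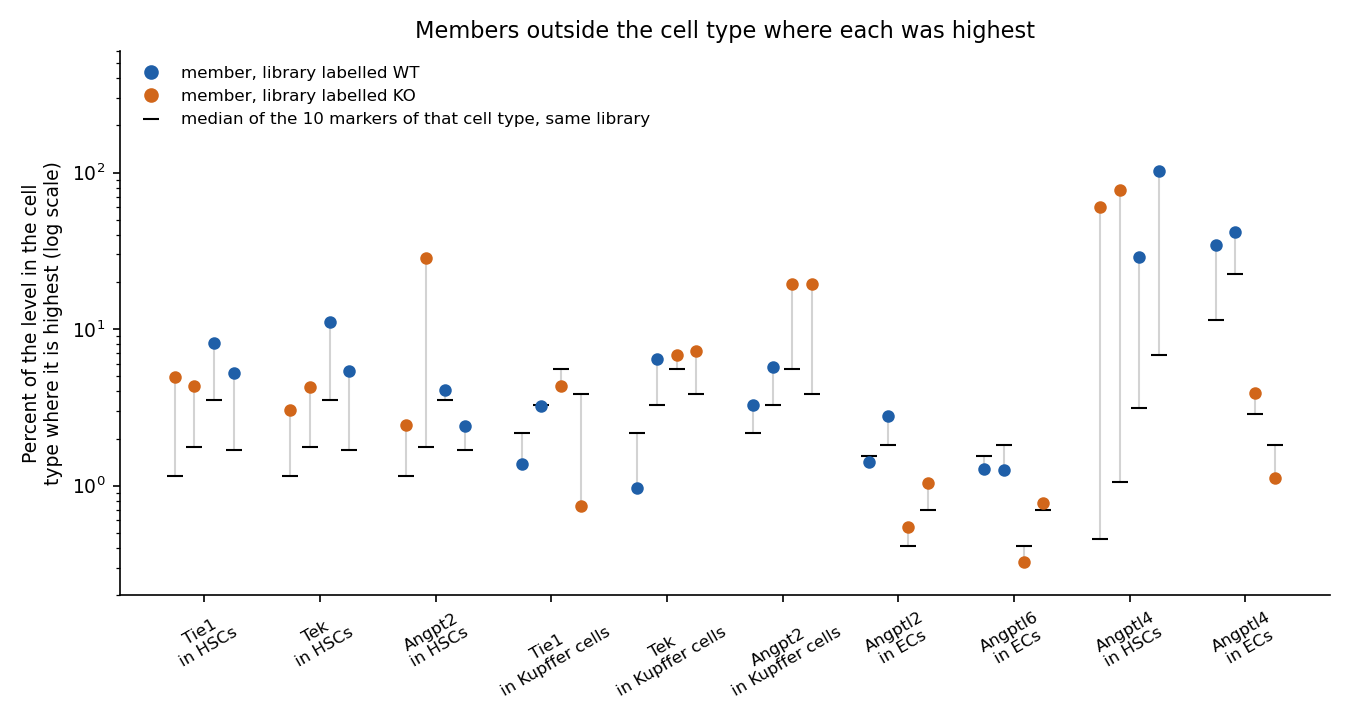
Level of a gene outside its main cell type, as a percent of its mean in the main cell type (log axis), for WT-labelled (blue) and KO-labelled (orange) libraries, with the median percent of the 10 markers of the main cell type in the same library as a black dash. Angptl4 in HSCs lies at 28.9% to 103% against marker medians of 0.457% to 6.80%, while Angptl6 in ECs lies near the dashes.

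Between the labels, Angptl4 in ECs was the only gene of the 7 past the threshold in any cell type by edgeR. It was at 59.5 ± 7.94 CPM (SD, n = 2) under WT and 3.90 ± 3.05 CPM (SD, n = 2) under KO, and both KO-labelled libraries lay far below both WT-labelled ones. The log2 fold change was -3.95 ± 0.546 (SE), or 15.5-fold lower, with an edgeR adjusted p of 0.0300 and a DESeq2 adjusted p of 1.71e-12. Thus 1 of the 6 genes tested in ECs passed both tools, against 2.08% of all genes by edgeR (1.97% lower) and 6.85% by DESeq2, and 3 of the 6 had an unadjusted p under 0.05, as did 15% of all genes. Angpt1 was too low in ECs to be tested. The call was lost without KO library 46, where the log2 fold change was -3.34. It was also lost with all 16 libraries in one fit (edgeR adjusted p = 0.0842, unadjusted p = 0.00268). With hepatocyte-enriched genes other than Angptl4 left out, the log2 fold change was -3.99 and the edgeR adjusted p was 0.135. There the unadjusted p was 0.000132, against 0.000256 in the main fit, and 0 genes passed, against 305 in the main fit.

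RNA of hepatocyte genes moved with this difference. For 856 hepatocyte-enriched genes (at least 10 CPM in WT-labelled hepatocytes and at least 8-fold above WT-labelled Kupffer cells, Angptl4 left out), the median level in EC libraries was 11.1% and 22.8% of the hepatocyte level under WT and 3.34% and 2.28% under KO. Applied to the mean Angptl4 level of WT-labelled hepatocytes, 217 CPM, these shares give 24.2 and 49.6 CPM under WT, where 53.9 and 65.1 CPM were measured. They give 7.26 and 4.96 CPM under KO, where 6.06 and 1.74 CPM were measured. The WT-labelled hepatocyte libraries differed widely for Angptl4, and with the lower and the higher of them the same shares give 6.27 to 42.1 CPM and 12.9 to 86.3 CPM in ECs labelled WT. Their part in the difference between labels was not tested. In HSCs the shares give 1.98 to 17.2 CPM, and 44.9 to 159.8 CPM were measured.

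**Figure D3:**
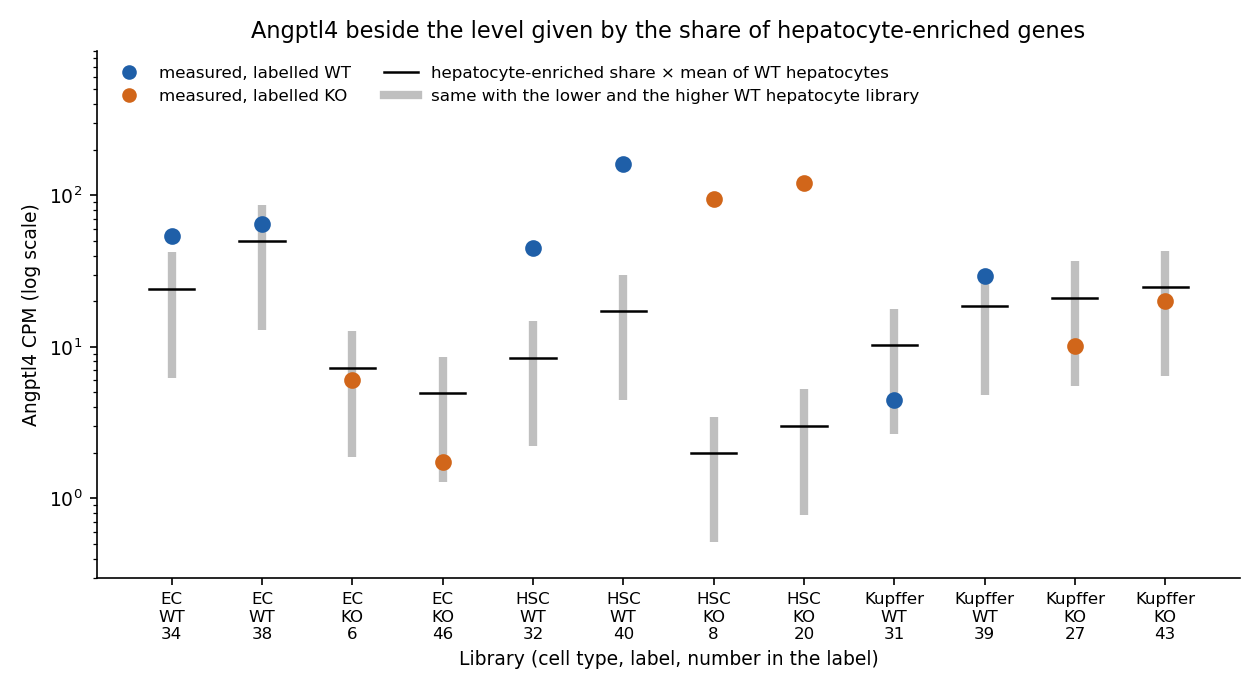
Angptl4 in each EC, HSC and Kupffer cell library (CPM, log axis; blue WT label, orange KO label), with the level that the library's share of hepatocyte-enriched genes gives from the mean of WT-labelled hepatocytes (black dash) and from the lower and the higher of these libraries (grey bar). All 4 HSC libraries lie above their dashes, and the KO-labelled EC libraries, at 6.06 and 1.74 CPM, lie at or below theirs.

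The other angiopoietin-like genes were lower in ECs labelled KO without passing the threshold. Angptl2 was at 27.1 and 53.4 CPM under WT and 10.5 and 20.0 CPM under KO, with a log2 fold change of -1.37 ± 0.469 (SE, edgeR adjusted p = 0.253, DESeq2 0.0722). Angptl6 was at 32.2 and 31.5 CPM under WT and 8.15 and 19.4 CPM under KO, with -1.19 ± 0.462 (SE, edgeR adjusted p = 0.305, DESeq2 0.168). The labels did not overlap for Angptl2, Angptl4 and Angptl6, that is, for 3 of 6 genes, as for 48.2% of all genes tested. The summed HSC markers in the same libraries were 610 and 825 CPM under WT and 252 and 419 CPM under KO. Of the 10 markers, 1 was at 0 in WT library 38 and 1, Hand2, in each KO-labelled library. The part of the HSC markers in these values was not tested.

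For the receptors and Angpt2 in ECs, the labels overlapped. Tie1 had a log2 fold change of -0.05 ± 0.292 (SE, edgeR adjusted p = 0.962), Tek of -0.58 ± 0.370 (0.530) and Angpt2 of 0.27 ± 0.343 (0.777). These errors leave room for changes of moderate size in either direction.

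**Figure D4:**
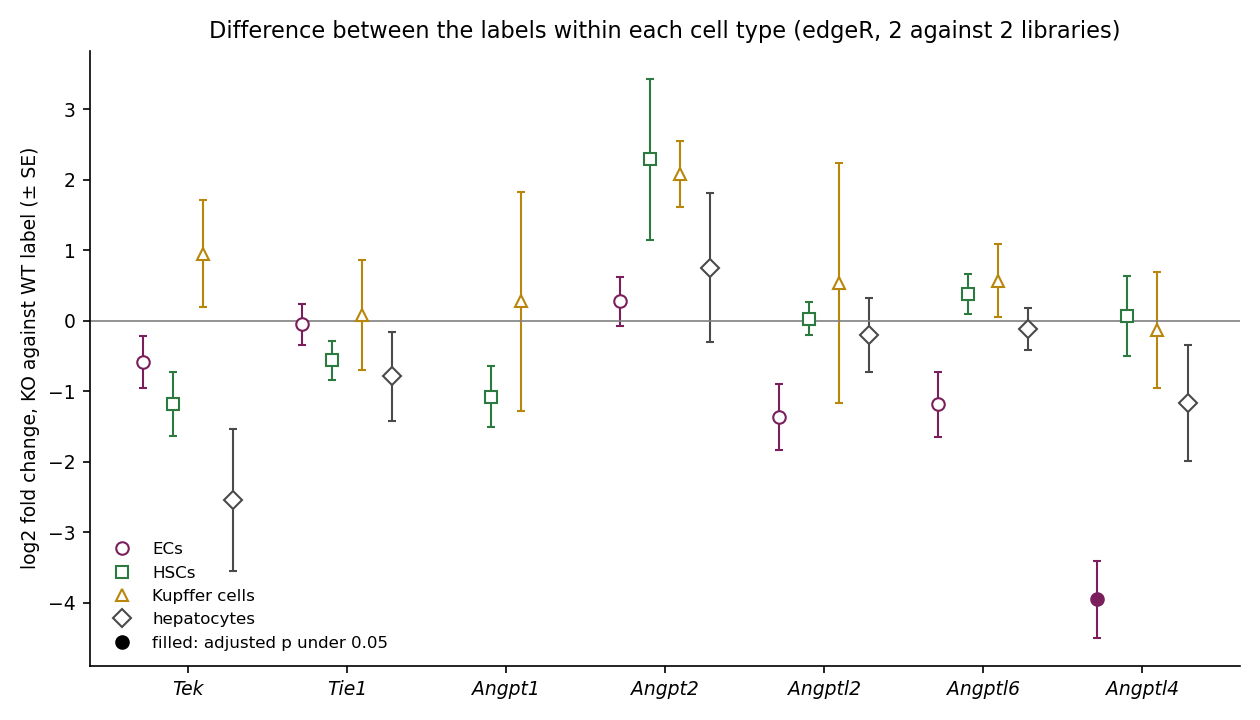
log2 fold change of KO against WT label (± SE, edgeR, 2 against 2 libraries) of each gene in ECs, HSCs, Kupffer cells and hepatocytes, with filled symbols for an adjusted p under 0.05. Angptl4 in ECs at -3.95 is the only filled symbol, and Angpt2 lies at 2.29 in HSCs and 2.08 in Kupffer cells with wide errors.

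In HSCs 0 of 7 genes passed by edgeR or by DESeq2, as did 0% of all genes by edgeR and 2.89% by DESeq2, and 1 of the 7, Tek, had an unadjusted p under 0.05 (8.75% of all genes). The labels did not overlap for Angpt1, Tek and Tie1, which were lower under KO, while 39.8% of all genes did not overlap. Tek had a log2 fold change of -1.18 ± 0.459 (SE, edgeR adjusted p = 0.559), Angpt1 of -1.08 ± 0.433 (0.573) and Tie1 of -0.57 ± 0.281 (0.665). WT library 32 was the highest for each of these genes. The summed EC markers, which include Eng, did not separate the labels, with 2835 and 3139 CPM under WT and 3073 and 3043 CPM under KO. The median of the 10 EC markers, as a percent of the EC level, was 3.53% in WT library 32, against 1.69% in the other WT library and 1.15% and 1.78% under KO. The highest median thus stood in the library with the highest Tek and Tie1, and its part in these values was not tested. Angptl2 and Angptl6, the abundant HSC genes, had log2 fold changes of 0.03 ± 0.235 and 0.38 ± 0.288 (SE).

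Angpt2 in HSCs had a log2 fold change of 2.29 ± 1.14 (SE, edgeR adjusted p = 0.665) that rested on KO library 20, without which it was -0.49. Library 20 also had the highest summed level of 5 smooth muscle markers (Acta2, Myh11, Cnn1, Tagln and Lmod1) among HSCs, 416 CPM, against 210 CPM in KO library 8 and 145 and 133 CPM under WT. It was also the highest HSC library for arterial and venous EC markers (660 CPM, against 392 to 526 CPM). The same held for Kupffer cell markers (2548 CPM, against 514 to 2384 CPM). The other marker lists, EC markers among them (3043 CPM), were not highest there. Whether the level of any of these markers bears on the Angpt2 value was not tested.

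In Kupffer cells 0 of 7 genes passed by edgeR or by DESeq2 (0% and 0.529% of all genes), and 1 had an unadjusted p under 0.05 (5.09% of all genes). That gene was Angpt2, which was 4.22-fold higher under KO at a log2 fold change of 2.08 ± 0.473 (SE, unadjusted p = 0.00413, edgeR adjusted p = 0.933, DESeq2 adjusted p = 0.0730). The labels did not overlap for Angpt2, Tek and Angptl6, all higher under KO, as for 36.6% of all genes. Tek had 0.95 ± 0.758 and Angptl6 0.57 ± 0.519 (SE). Summed EC markers were 892 and 1179 CPM under WT and 1674 and 1274 CPM under KO, and summed smooth muscle markers were 10.9 and 6.00 CPM under WT and 53.9 and 20.9 CPM under KO. Their part was not tested.

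In hepatocytes 0 of 6 genes passed by edgeR (0% of all genes). DESeq2 gave no adjusted p for Tek and Angpt2, and none of the other members tested passed it (0.344% of the 9309 genes with an adjusted p). By edgeR, 1 of the 6 had an unadjusted p under 0.05 (7.11% of all genes). That gene was Tek, with 61 and 24 reads under WT and 2 and 11 reads under KO, a log2 fold change of -2.54 ± 1.01 (SE) and an edgeR adjusted p of 0.700. Tie1 did not overlap in CPM by a small margin, with 10.5 and 8.93 CPM under WT and 8.90 and 2.02 CPM under KO, while its reads before scaling did overlap. In CPM, 2 of 6 genes did not overlap, against 39.5% of all genes. The summed EC markers were 161 and 146 CPM under WT and 138 and 97.8 CPM under KO in the same libraries, with medians of 0.617% and 0.498% of the EC level against 0.411% and 0.321%. Their part in the Tek and Tie1 values was not tested. Angptl4 had -1.17 ± 0.820 (SE, edgeR adjusted p = 0.765), which turned to 0.87 without WT library 33.

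Whether the label difference in ECs differed from that in another cell type was tested as an interaction over the 16 libraries. None of the 7 genes passed by edgeR against HSCs, Kupffer cells or hepatocytes, where 0.0349%, 2.07% and 0.0697% of all genes did. For Angptl4 the difference of log2 fold changes was -4.01 ± 1.36 against HSCs (SE, unadjusted p = 0.0124, edgeR adjusted p = 0.837), -3.85 ± 1.37 against Kupffer cells (unadjusted p = 0.0158, adjusted p = 0.222, DESeq2 adjusted p = 0.0422) and -2.81 ± 1.34 against hepatocytes (adjusted p = 0.580). The median level of the 856 hepatocyte-enriched genes, lower under KO in ECs, went the other way in Kupffer cells. It was 4.73% and 8.57% of the hepatocyte level under WT there and 9.72% and 11.4% under KO. In HSCs it was 3.91% and 7.94% under WT and 0.914% and 1.39% under KO. The part of these shares in the Angptl4 interactions was not tested. Angptl6 had unadjusted p-values of 0.0388 and 0.0231 against HSCs and Kupffer cells, both with adjusted p-values over 0.05. These comparisons share the EC libraries and are not independent of each other.

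Further genes of the family had other patterns. Angptl8, a liver hormone that acts on lipoprotein lipase, was highest in hepatocytes at 169.9 ± 96.0 CPM (SD, n = 4) and ranged there from 108 to 311 CPM. Angptl7 was at 35.4 ± 14.7 CPM (SD, n = 4) in Kupffer cells and had 0 reads in all 4 hepatocyte libraries, with 0.405 CPM in ECs and 0.657 CPM in HSCs. Angptl1 was at 3.67 ± 1.35 CPM (SD, n = 4) in ECs and at most 0.170 CPM on average elsewhere. Angpt4, another Tie2 ligand, reached 2.27 ± 2.52 CPM (SD, n = 4) in HSCs.

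Relative to Kupffer cells, Angptl7 was at -6.72 ± 0.717 in ECs and -5.84 ± 0.682 in HSCs on the log2 scale (SE, edgeR adjusted p-values 6.03e-05 and 9.11e-05). Angptl1 was higher in ECs than in HSCs by 5.01 ± 1.52 (SE, edgeR adjusted p = 0.0354). Between the labels in ECs, Angptl8 had -2.06 ± 0.755 (SE, edgeR adjusted p = 0.281, DESeq2 0.0606). It is hepatocyte-high, and the hepatocyte marker sums given above moved in the same libraries, whose part was not tested.

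**Figure D5:**
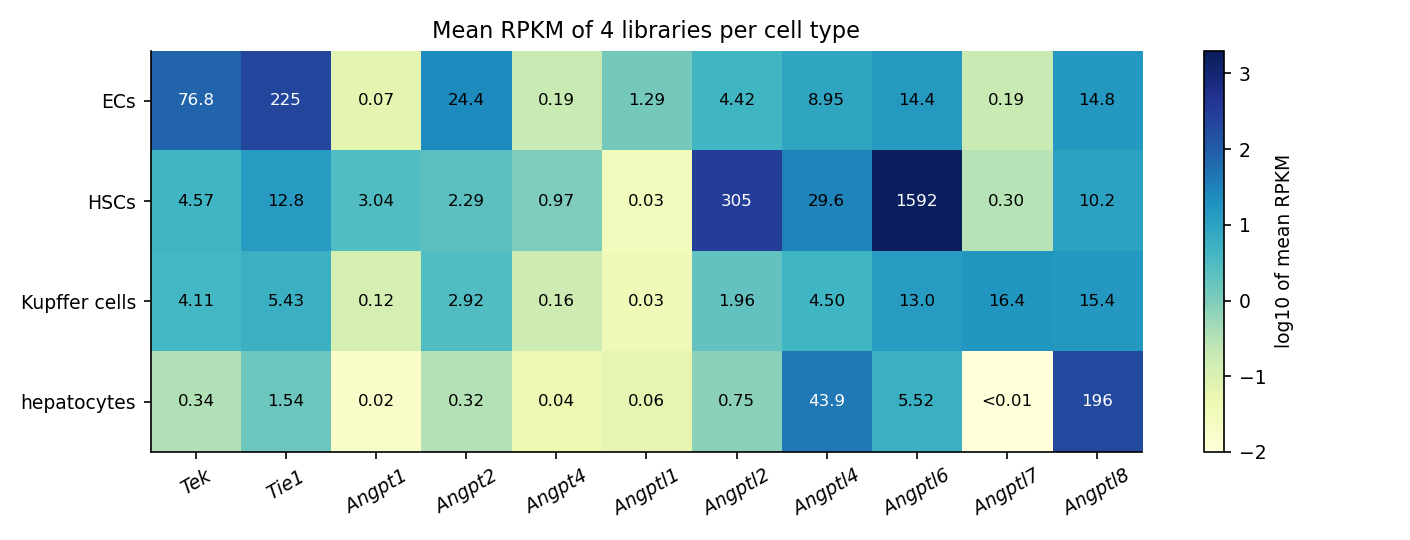
Mean RPKM of 4 libraries per cell type for the genes of the family named here, with the color as its log10 and values under 0.01 drawn at the foot of the scale. The highest values are Angptl6 in HSCs at 1592, Angptl2 in HSCs at 305 and Tie1 in ECs at 225.

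Of 8 genes of Tie receptor partners, 0 of the 7 tested passed between the labels in ECs, against 2.08% of all genes. Their median log2 fold change was -0.41, against -0.01 over all genes. Ptprb, the vascular phosphatase that dephosphorylates Tie2, was endothelial at 1872 ± 325 CPM (SD, n = 4), with 1977 to 2237 CPM under WT and 1459 to 1816 CPM under KO (log2 fold change -0.37, edgeR adjusted p = 0.579). It was 5.48 ± 0.372 higher in ECs than in HSCs on the log2 scale (SE, edgeR adjusted p = 8.08e-07). The integrin chain genes Itgb1, Itga5 and Itgb3, whose products can bind angiopoietins, were at 288, 135 and 20.0 CPM in ECs, with log2 fold changes between the labels of -0.45, -0.21 and -0.60 (edgeR adjusted p-values 0.559, 0.819 and 0.485). Itgb3 was far higher in HSCs at 238 ± 67.7 CPM (SD, n = 4). Itga5 was highest in Kupffer cells, with 53.0 to 149 CPM under WT and 439 to 677 CPM under KO, and passed DESeq2 there but not edgeR.

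Of 17 genes of Tie2 signal transduction, 0 of 17 passed in ECs, against 2.08% of all genes. At an unadjusted p under 0.05, 1 was higher and 3 were lower (4 of 17, against 15% of all genes). The median log2 fold change was -0.08. The endothelial nitric oxide synthase Nos3 had 254 to 328 CPM under WT and 76.7 to 187 CPM under KO (log2 fold change -1.16, edgeR adjusted p = 0.248) and passed DESeq2. The adaptors Nck1 and Shc1 were at 125 and 87.6 CPM in ECs, with log2 fold changes of 0.68 and 0.32 (edgeR adjusted p-values 0.207 and 0.611). The adaptor Grb7 had -3.28 (edgeR adjusted p = 0.0718), with a hepatocyte mean of 139 CPM against 15.8 CPM in ECs. Akt2, a kinase of the survival signal, had -0.99 (adjusted p = 0.180).

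Of 10 transcription factors linked to the Angpt2 and Tie genes, 0 of 10 passed in ECs, against 2.08% of all genes, and the median was 0.03. Klf2, the flow-induced factor, was at 596 to 768 CPM under WT and 273 to 457 CPM under KO (log2 fold change -0.89, edgeR adjusted p = 0.304). The ETS factors Ets1 and Elf1 were at 276 and 153 CPM in ECs with log2 fold changes of -0.13 and 0.43, and both were higher in ECs than in HSCs, by 0.82 ± 0.191 and 2.68 ± 0.217 (SE, edgeR adjusted p-values 0.00741 and 3.34e-06).

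For Angptl4 the neighbouring lists were the lipase axis and the PPAR and hypoxia genes. Of 10 genes of the lipase axis, 9 were tested in ECs, and 1 of them, Lipc, was called lower, against 2.08% of all genes called and 1.97% called lower. Lipc, hepatic lipase, went from 33.2 and 62.0 CPM under WT to 9.82 and 11.4 CPM under KO, and its log2 fold change was -2.15 ± 0.372 (SE, edgeR adjusted p = 0.0469). It is a hepatocyte gene, with a mean of 336 CPM in hepatocytes, and the hepatocyte shares given beside Angptl4 moved in the same libraries. Their part was not tested.

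Plin2, the lipid droplet protein, had -0.92 in ECs (edgeR adjusted p = 0.110) and Cpt1a, the carnitine palmitoyltransferase of fatty acid oxidation, had -0.66 (0.483). Pparg, a PPAR factor that was itself measured in ECs at 7.22 to 9.07 CPM under WT and 21.7 to 25.0 CPM under KO, had a log2 fold change of 1.52 and did not pass edgeR (adjusted p = 0.0984) but passed DESeq2. Gpihbp1 and Lpl were picked out after their values were seen, as the endothelial anchor of lipoprotein lipase and the enzyme that Angptl4 inhibits. Gpihbp1 was at 1943 ± 694 CPM (SD, n = 4) in ECs, with 1301 and 1402 CPM under WT and 2393 and 2675 CPM under KO (log2 fold change 0.91, edgeR adjusted p = 0.183, DESeq2 0.00250). Lpl was highest in Kupffer cells at 1016 ± 36.7 CPM (SD, n = 4), followed by HSCs at 265 CPM, ECs at 42.5 CPM and hepatocytes at 31.4 CPM. In HSCs, Kupffer cells and hepatocytes, 0 genes of these 6 lists passed edgeR between the labels, while DESeq2 called some in each of these cell types, among them Nos3 and Lipc in HSCs.

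Genes with a pattern like that of the family were ranked by Pearson's r of log2(CPM + 1) over the 16 libraries, as a description. Libraries of a cell type share its whole profile, so that high values are common among genes of 1 cell type. Tie1 was most like Dll4 (0.982), Shroom4 and Cds2, and Tek most like Rapgef3 (0.980), Cav2 and Fam171a1. Angpt2 was most like Fabp4 (0.954), Hoxa5 and Herc3. Angpt1 was most like Ssc5d (0.974), Stmn3 and Gm10400, Angptl2 most like Wfdc1 (0.992), Reln and S1pr3, and Angptl6 most like Lama1 (0.992), Sod3 and Mustn1. Angptl4 had no gene as close, with 0.889 for Fxyd1, 0.887 for Spsb4 and 0.886 for Hsd11b1. Within the family r was 0.936 for Tek with Tie1, 0.942 for Angptl2 with Angptl6, 0.885 for Angpt2 with Tek and 0.865 for Angpt1 with Angptl2.

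Some of the 7 genes overlap a gene on the opposite strand, and the strand setting of the counting is not given in the sources used here. Angptl6 shares 265 exon bases, 16.8% of its exons, with A230050P20Rik, which was at 26.5 to 93.3 CPM on average across cell types, and reads in the shared bases could not be told apart without strand. Angpt1 shares 737 exon bases with Gm17473, which had 0 reads in all libraries. Angpt2 lies across Mcph1 and Angptl2 across Ralgps1 without shared exon bases.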

How the data were processed

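RNA sequencing counts of 16 libraries were used. The authors deposited raw counts per Ensembl gene for each library, without normalization. The submitters' notes name Trimmomatic 0.32, HISAT2 2.1.0, HTSeq 0.9.1, edgeR and GRCm38, while the annotation release and strand setting are not given in the sources used here. The library kit is given differently for the series and for its samples, which was not settled. The 5 summary lines per table, 42.5% to 57.5% of reads, were left out of totals. Totals on genes ranged from 12872706 to 15690506, and floors of 3 counts cover counting error only.

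Members were matched by symbol. CPM were computed over gene rows and RPKM with exon lengths of GENCODE release 21, which holds 99.1% of the identifiers. Labels were compared within a cell type (2 against 2 libraries), and cell types and interactions over 16 libraries with 1 mean per group, with edgeR 4.0.16 in R 4.3.3 (filterByExpr, TMM, quasi-likelihood test). Adjusted p-values are Benjamini-Hochberg values over all genes tested, with a threshold of 0.05. The edgeR and DESeq2 fits were tried on simulated counts, while the other steps were not. Libraries are labelled as separate samples, but which mouse each came from is not given, so that p-values measure the spread between these libraries. Alternatives were DESeq2 1.42.0, RLE factors, library totals, other filters, a threshold of 0.1, hepatocyte-enriched genes left out, all 16 libraries in one fit, the 8 WT libraries alone and each replicate left out. Plots used Python 3.11.15 and matplotlib 3.10.9.

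The members and lists were chosen with earlier results of these data known. Besides the members, the rule names list genes past the threshold, every other angiopoietin gene counted, and in each further list the 3 genes highest in the members' main cell type and the 2 with the lowest unadjusted p in ECs. It also names the 3 genes most like each member by correlation, genes that overlap a member, and Zeb2. Some genes that this rule names are not reported here.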

Additional observations from a re-analysis of the deposited data

How the results depend on the processing

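No paired analysis was possible because the labels share no replicate number between groups. In ECs the count of members called between the labels was 1, but 3 with no filter on low counts, 0 without hepatocyte-enriched genes (also 0 with the members kept in, a setting chosen after the data were seen), 0 with all 16 libraries in one fit, and 0 to 1 when a replicate was left out. Angptl4, the member called in ECs, is itself hepatocyte-enriched, so that the setting without these genes left it untested unless members were kept in. With no filter on low counts 1 member passed in HSCs and 1 in hepatocytes. In the interactions without that filter, 1 passed against HSCs, 3 against Kupffer cells and 2 against hepatocytes. The interaction against Kupffer cells gave 1 with DESeq2 and 0 to 1 when a replicate was left out. Between Kupffer cells and hepatocytes the 3 members called became 6 with library totals, 5 with no filter and 1 with the 8 WT libraries alone. Over all genes, the label comparison in ECs called 305 genes, 983 with DESeq2, 1259 with no filter, 190 with library totals, 489 with at least 10 counts in every library and 0 without hepatocyte-enriched genes. The 0 called in HSCs became 408 with DESeq2, 663 with no filter and 178 with all 16 libraries in one fit, while DESeq2 and no filter gave 72 and 159 in Kupffer cells and 32 and 227 in hepatocytes. The interactions called 6, 357 and 12 genes against HSCs, Kupffer cells and hepatocytes, 98, 1087 and 593 with DESeq2, 305, 1302 and 980 with no filter, 0, 225 and 0 with library totals, and 1, 7 and 1 without hepatocyte-enriched genes. With the 8 WT libraries alone 1630, 2762 and 3391 genes were called for ECs against HSCs, ECs against Kupffer cells and HSCs against Kupffer cells, where 16 libraries gave 4481, 5513 and 7389. With library totals the split of genes called between ECs and hepatocytes went from 5716 higher and 4387 lower to 10146 and 2143. The Lipc call in ECs was lost with library totals, with all 16 libraries, and without EC WT replicate 38 or EC KO replicate 6 or 46.

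Signs turned for log2 fold changes that were not called. Angptl2 between the labels in HSCs was -0.015 without hepatocyte-enriched genes, and -0.015 with the members kept. With the 8 WT libraries alone Angptl4 was 1.53 and Angptl6 0.58 for ECs against Kupffer cells, Angptl6 was 0.43 for ECs against hepatocytes, and Angptl2 was -0.073 and Angptl6 -0.15 for Kupffer cells against hepatocytes. Library totals gave Angptl6 0.061 for ECs against Kupffer cells and 1.26 for ECs against hepatocytes, the latter 0.13 with no filter, and RLE factors gave Tek -0.0019 for HSCs against Kupffer cells. The cause was not tested.

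Leaving out replicates also turned signs. Between the labels the ranges in ECs were -0.14 to 0.87 for Angpt2, -0.33 to 0.31 for Tie1 and -0.80 to 0.022 for Itgb1. In HSCs they were -0.49 to 3.18 for Angpt2, -0.14 to 0.17 for Angptl2 and -0.58 to 1.22 for Angptl4. In Kupffer cells they were -2.16 to 1.13 for Angpt1, -1.62 to 0.84 for Tie1, -10.19 to 1.52 for Angptl2 and -0.89 to 1.61 for Angptl4. In hepatocytes they were -0.58 to 2.00 for Angpt2, -0.92 to 0.27 for Angptl2, -1.99 to 0.87 for Angptl4 and -0.26 to 0.032 for Angptl6. Between cell types, ECs against Kupffer cells gave -0.95 to 0.47 for Angptl4 and -0.72 to 0.13 for Angptl6, and ECs against hepatocytes -0.79 to 2.77 for Angpt1 and -0.30 to 0.37 for Angptl6. HSCs against Kupffer cells gave -1.82 to 0.033 for Angpt2 and -0.29 to 0.97 for Tek, and Kupffer cells against hepatocytes -4.81 to 0.88 for Angptl2 and -0.015 to 0.69 for Angptl6. The lowest Angptl2 values were those without Kupffer cell KO replicate 27, which left KO replicate 43 with 0 reads alone in its group, so that these fitted values are no bound. The Angpt1 value of -0.79 was that without EC WT replicate 34, which left EC WT replicate 38 with 0 reads alone in its group. Both WT-labelled hepatocyte libraries had 0 reads too, so that it is no bound either. The same omissions gave the highest interaction values of Angpt1 against HSCs and Kupffer cells and of Angptl2 against Kupffer cells, given next. In the interactions, Angpt1 ranged from -4.59 to 4.85 and Angpt2 from -2.85 to 0.86 against HSCs, Angpt1 from -5.94 to 3.49, Tie1 from -0.96 to 1.63 and Angptl2 from -2.95 to 8.86 against Kupffer cells, and Angpt2 from -1.70 to 0.87 against hepatocytes. A lone replicate was assumed to vary like the others in these fits. With 2 libraries per group the errors are wide, and genes near the floor, such as Angpt1 outside HSCs, are limited by depth.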
